A study of Mus musculus with 10 samples.

Results

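The collagen chain genes of the mouse were examined in cultured cells, using every array feature whose gene symbol is Col followed by a type number, the letter a and a chain number. This took in 74 of the 62976 features on the array and 43 of the 20738 genes that a feature names. The chains were sorted by the structure their type builds: 9 fibrillar genes (types 1, 2, 3, 5 and 11), 6 basement membrane genes (type 4), 5 genes of beaded filaments (type 6), 3 network genes (types 8 and 10), and 20 others, of which 9 are FACIT genes (fibril-associated collagens with interruptions in the helix) and 11 belong to the remaining types. Of the 43 genes, 40 were bright enough to test, with a feature that passed the 40th percentile on 2 or more arrays, and Col6a6, Col9a3 and Col13a1 stayed below the filter on dim features. No feature is named for Col6a3, which was not analysed here.

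Collagens are secreted proteins in which chains wind around each other into a helix and then assemble outside the cell. Fibrillar types form the ropes of connective tissue and are the main matrix product of fibroblasts, type IV forms the sheet of the basement membrane on which epithelia and Sertoli cells sit, and FACITs and beaded filaments link fibrils to each other and to cells. A helix often needs the products of different genes, such as Col1a1 and Col1a2 for type I, so the chains of a type are commonly produced together.

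The cells were of 3 kinds, measured on 10 arrays with Cy3-labelled total RNA. There were 4 arrays of induced embryonic Sertoli-like cells (ieSCs) derived from female tail tip fibroblasts (TTFs), 4 arrays of ieSCs derived from mouse embryonic fibroblasts (MEFs), and 2 arrays of MEFs. Per the labels, both kinds of ieSC carried transgenes for Sox9, Gata4, Wt1, Nr5a1 and Dmrt1 and had been without doxycycline (dox), the drug that switches such transgenes on, for 2 weeks, while the MEFs carried none of the 5 transgenes and had been cultured for 2 weeks. All 3 groups, the MEFs included, came from a congenic strain homozygous for R26-M2rtTA, the dox-dependent activator. Each kind of ieSC has names 1 and 2 in the labels with arrays a and b for each, and the MEFs have a single name with arrays a and b. Nothing in the labels says whether arrays of a name were separate cultures or whether names were separate lines. The p-values below cover the spread among these arrays and the ieSC names, whatever its source. They hold no spread between names of MEFs, which have a single name. The correlation of arrays within a name was shared by all genes. For a gene whose names lie far apart, the p-values can therefore understate the spread between names. No TTFs were among the samples, so both kinds of ieSC were set against the same 2 MEF arrays.

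Across all features, arrays of a shared name correlated at 0.9896 to 0.9966, and ieSC with MEF arrays at 0.926 to 0.9408. Xist, the RNA that marks an inactive X chromosome, did not follow the female label of the TTF-derived cells. It read 3.77 to 4.35 in TTF-derived ieSCs, 3.41 to 4.60 in MEF-derived ieSCs and 9.31 to 9.37 in MEFs, in log2 array intensity. The Y-linked gene Eif2s3y averaged 3.71 in TTF-derived ieSCs, 3.64 in MEF-derived ieSCs and 10.3 in MEFs. Its low level in TTF-derived ieSCs goes with their female label, but the level in MEF-derived ieSCs was as low, so it does not tell the kinds apart. Of 7 embryonic Sertoli markers, 6 were tested and all 6 were higher in ieSCs than in MEFs, while Amh stayed below the filter; over all 16650 tested genes, 25.9% were higher and 23.6% lower. Of 7 fibroblast markers, 5 were lower in ieSCs, among them Thy1, with Vim (0.15 ± 0.16) and S100a4 (-1.12 ± 0.54) not passing the test (log2 difference ± SE). That list averaged 8.91 to 9.88 on the arrays of TTF-derived ieSCs, 9.36 to 9.92 on those of MEF-derived ieSCs and 15.04 to 15.07 on those of MEFs, with Fap at the dim end in both kinds of ieSC and Thy1 in TTF-derived ieSCs. All 6 macrophage markers and all 6 markers of peritubular and smooth muscle cells were also lower in ieSCs, beside those 23.6% of all genes. These counts are for both kinds of ieSC together. In MEF-derived ieSCs alone, the muscle marker Acta2 (-0.73 ± 0.34) and the fibroblast marker Fbn1 (-1.17 ± 0.74) did not pass. The macrophage list averaged 6.33 to 6.52 on the arrays of TTF-derived ieSCs, 6.61 to 6.80 on those of MEF-derived ieSCs and 12.01 to 12.03 on those of MEFs, and C1qa and Laptm5 lay at the dim end in both kinds of ieSC. The muscle list averaged 9.80 to 9.87 in TTF-derived ieSCs, 9.84 to 10.88 in MEF-derived ieSCs and 14.95 to 14.96 in MEFs, with Myh11 at the dim end in both kinds of ieSC. The part that such cells in the MEF culture play in the collagen differences was not tested. In a bulk sample, fewer cells of a type and less RNA per cell cannot be told apart.

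In the comparison of both kinds of ieSC together with MEFs, collagen genes moved in both directions by class. Of the 40 tested genes, 18 were lower in ieSCs, 6 were higher and 16 did not pass the test (limma, Benjamini-Hochberg adjusted p under 0.05 over 16650 genes). Over all 16650 genes, 23.6% were lower and 25.9% higher, 49.5% in either direction, against 60% of the collagen genes in either direction. The median log2 difference was -0.46 over the collagen genes and 0.09 over all genes. Fibrillar genes were lower in 7 of 9 cases and higher in 0, and all 3 network genes were lower. Basement membrane genes were higher in 4 of 6 cases and lower in 1, and 0 of the 4 tested beaded-filament genes passed in either direction. Among the 18 tested FACIT and other genes, 2 were higher and 7 lower. A total of 10 of the 40 genes were lower by at least 2 log2 units and 5 were higher by that much, Col6a5 among the 5 without passing the test. Differences of that size were not counted over all genes.

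**Figure D1:**
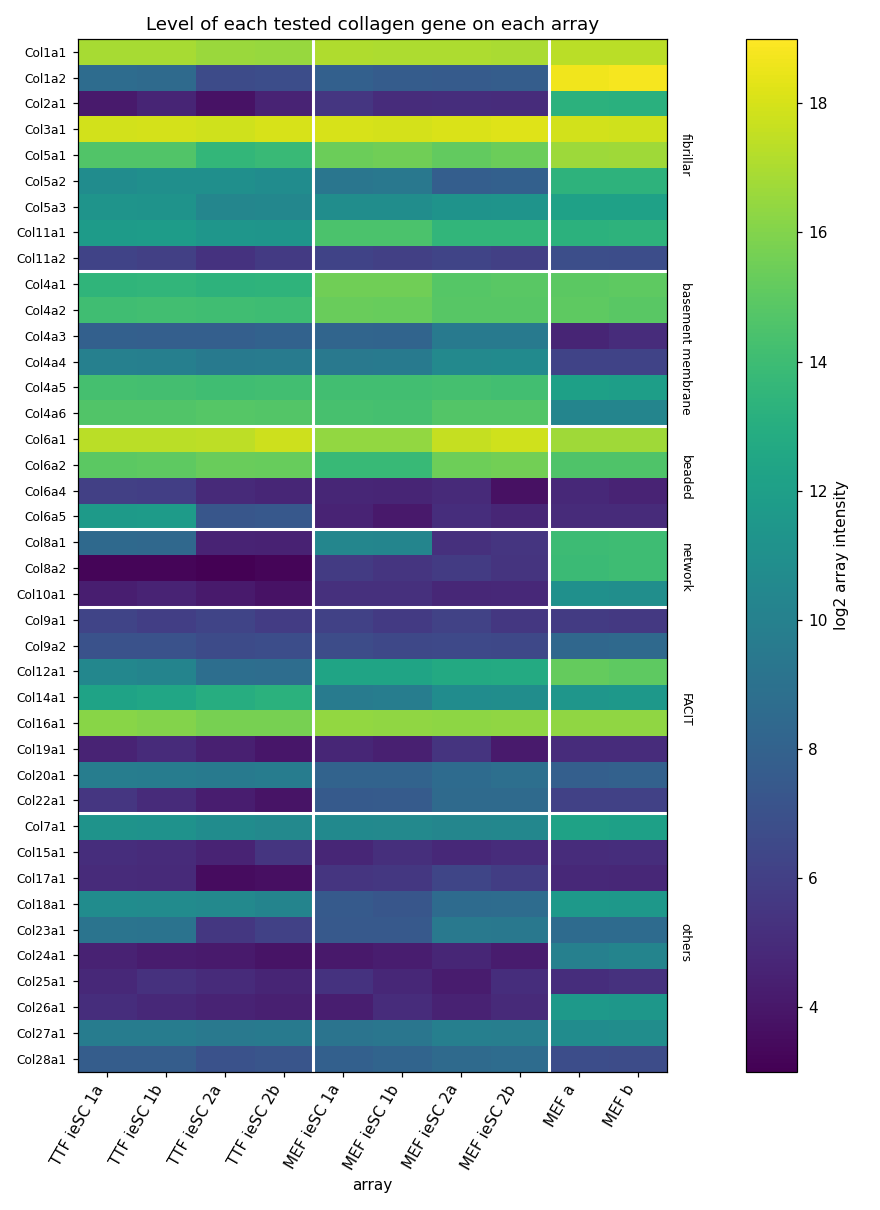
Log2 array intensity (colour) of the 40 tested collagen genes (rows, grouped by class) on the 10 arrays (columns: TTF-derived ieSC, MEF-derived ieSC, MEF). Col1a2, Col2a1, Col8a2, Col10a1, Col24a1 and Col26a1 are bright on both MEF arrays and dark on all 8 ieSC arrays, and Col4a3 to Col4a6 run the other way; colours are to be read along a row, since probes of different genes differ in brightness.

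Each kind of ieSC was then set against MEFs by itself. In TTF-derived ieSCs, 20 of the 40 collagen genes were lower and 7 higher than in MEFs, against 21.9% and 23.3% of all genes (45.1% in either direction). The arrays of the groups did not overlap for 34 of the 40 genes, these 27 among them. In MEF-derived ieSCs, 16 were lower and 6 higher, against 24% and 27.2% of all genes (51.2% in either direction). Here arrays did not overlap for 28 of the 40 genes, these 22 among them. Non-overlap was not counted over all genes, so it adds nothing to the calls. The 4 basement membrane genes Col4a3 to Col4a6 were higher in both kinds, and 14 genes were lower in both: Col1a2, Col2a1, Col5a1, Col5a2, Col5a3, Col7a1, Col8a1, Col8a2, Col9a2, Col10a1, Col12a1, Col24a1, Col26a1 and Col27a1. These counts share the MEF arrays, so the 18 genes are not independent evidence from 2 sets of controls. With the arrays of each name averaged before the fit, which leaves 5 values, the genes lower than in MEFs numbered 11 for TTF-derived ieSCs and 10 for MEF-derived ieSCs. The calls lost in this way were those of Col1a1, Col4a2, Col5a2, Col5a3, Col6a5, Col8a1, Col11a1, Col11a2, Col14a1, Col22a1 and Col27a1 in TTF-derived ieSCs, and of Col5a1, Col5a3, Col8a1, Col12a1, Col14a1, Col22a1 and Col27a1 in MEF-derived ieSCs. For both kinds together, Col1a1, Col4a1, Col5a3, Col8a1, Col11a2 and Col28a1 lost their call.

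**Figure D2:**
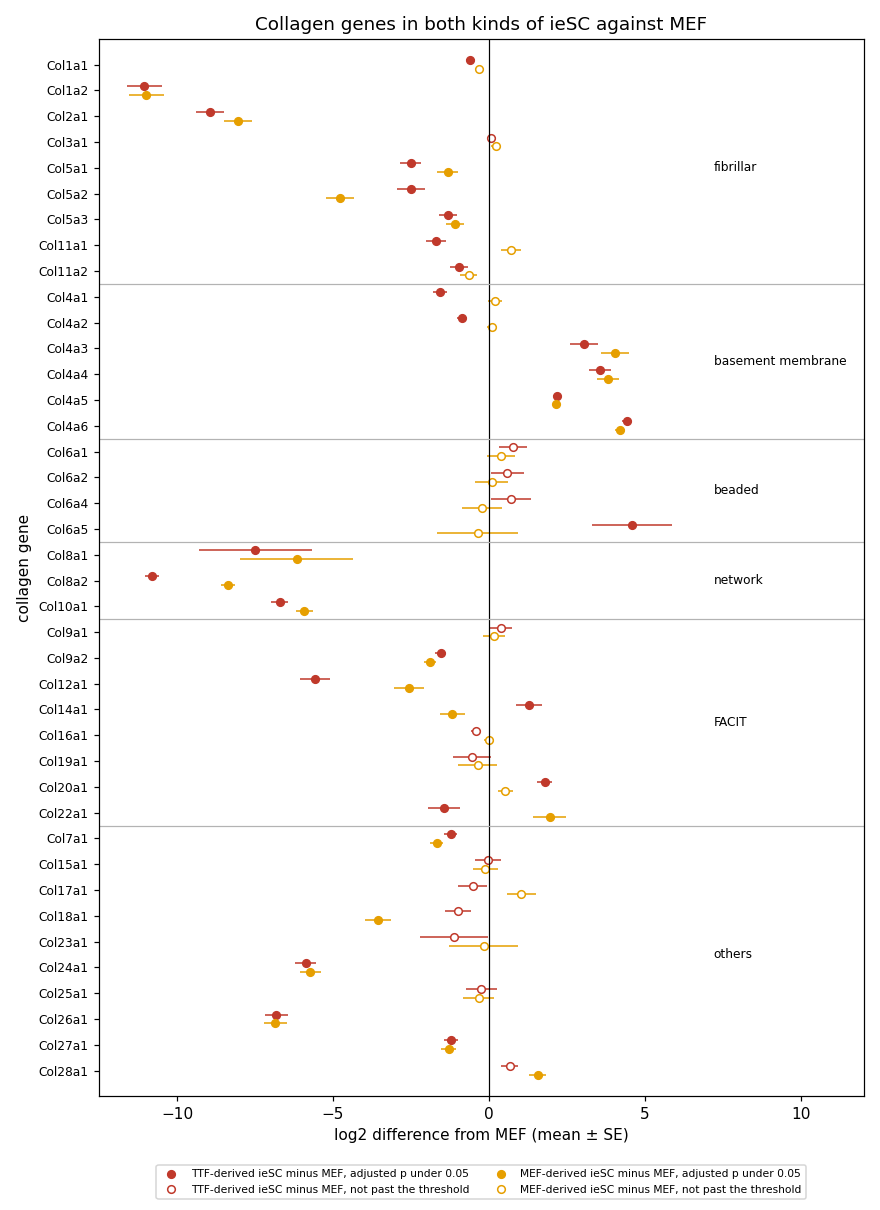
Log2 difference from MEF (x axis, mean ± SE from the fit) of the 40 tested collagen genes (y axis, by class), for TTF-derived ieSCs (red, upper point of each pair) and MEF-derived ieSCs (orange, lower point); filled points have an adjusted p under 0.05. Most fibrillar and all network points lie left of 0, Col4a3 to Col4a6 lie right of it, and Col14a1 and Col22a1 have filled points on opposite sides.

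Type I collagen, the main fibril of skin, bone and tendon, is made of Col1a1 and Col1a2 chains, and its genes behaved unequally. Col1a2 read 8.65, 8.54, 6.68 and 6.76 on TTF-derived ieSC arrays 1a, 1b, 2a and 2b, 7.89, 7.66, 7.57 and 7.74 on the same arrays of MEF-derived ieSCs, and 18.65 and 18.76 on MEF arrays a and b (log2 array intensity here and below). Every ieSC array lay far below both MEF arrays, and name 2 of the TTF-derived cells lay below name 1. The log2 difference of ieSCs from MEFs was -11.02 ± 0.51 (SE; adjusted p = 1.83e-07), all of it above the dim end of the arrays, which lies near 5.0. The ieSC kinds differed by -0.06 ± 0.46 (adjusted p = 0.946), but by 0.88 without name 2 of the TTF-derived ieSCs and by -0.99 without their name 1. Col1a1, by contrast, read 16.91, 16.91, 16.62 and 16.53 in TTF-derived ieSCs, 17.08, 17.04, 17.04 and 16.94 in MEF-derived ieSCs, and 17.35 and 17.34 in MEFs. The ieSC arrays were again all below the MEF arrays, but by much less: the log2 difference was -0.46 ± 0.13, 1.37-fold lower (adjusted p = 0.0169). Against MEFs, Col1a1 passed the test in TTF-derived ieSCs (-0.60 ± 0.14, adjusted p = 0.0075) and not in MEF-derived ieSCs (-0.31 ± 0.14, adjusted p = 0.0976), and the ieSC kinds did not differ past the threshold (-0.28 ± 0.12, adjusted p = 0.0902). Both genes are represented by 1 feature each, so no second feature of either gene bears on the gap between them. Col1a1 ranked between percentiles 98.6 and 99.3 of its arrays, and flags for saturated spots were not used here.

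The window around the start of Col1a2 is printed because its fall was the largest among the 40 tested genes. It runs from 250 bases before to 50 bases after the annotated start (chr6:4505368-4505667, plus strand; RefSeq, GRCm38.p6). Capitals mark matches on either strand to any of 4 motifs. The CCAAT box was searched as CCAAT and the GC box as GGGCGG. The TATA element was searched as TATAAA and the core shared by the factors WT1 and EGR1 as GCGTGGG. On the opposite strand a CCAAT box reads ATTGG and a GC box reads CCGCCC.
Col1a2: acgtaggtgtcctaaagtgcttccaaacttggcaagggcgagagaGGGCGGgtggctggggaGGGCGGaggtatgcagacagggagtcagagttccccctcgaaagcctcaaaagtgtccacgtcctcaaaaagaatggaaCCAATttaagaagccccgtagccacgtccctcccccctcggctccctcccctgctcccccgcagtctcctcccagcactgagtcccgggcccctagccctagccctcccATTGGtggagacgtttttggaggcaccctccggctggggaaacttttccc
The window holds 2 CCAAT boxes and 2 GC boxes and none of the other motifs. Over 32851 promoter windows of the same length, 37.4% hold the CCAAT box, 35.7% the GC box, 13.6% the TATA element and 5.04% the WT1 core. Of 38 windows that belong to 34 of the collagen genes, 13 hold the CCAAT box, 23 the GC box, 5 the TATA element and 2 the WT1 core. A match describes the letters of the window and not binding.

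Col3a1, the type III chain that accompanies type I in soft tissues, stayed near the top of every array: 17.92, 17.96, 17.84 and 18.06 in TTF-derived ieSCs, 18.06, 17.95, 18.10 and 18.23 in MEF-derived ieSCs, and 17.89 and 17.86 in MEFs. The arrays of TTF-derived ieSCs and MEFs overlapped, and the log2 difference of ieSCs from MEFs was 0.14 ± 0.14 (adjusted p = 0.433). MEF-derived ieSCs lay just above both MEF arrays, by 0.21 ± 0.15 (adjusted p = 0.28). Col3a1 ranked between percentiles 99.6 and 99.8 of its arrays. Its neighbour Col5a2, which lies 24624 bases away on chromosome 1, fell in both kinds of ieSC. Col5a2, a chain of type V, the minor fibrillar type that sets fibril width, read 10.75, 10.97, 10.94 and 10.76 in TTF-derived ieSCs, 9.28, 9.40, 7.76 and 7.89 in MEF-derived ieSCs, and 13.37 and 13.35 in MEFs. No array overlapped between any pair of groups, and MEF-derived ieSCs were lowest. The log2 difference from MEFs was -2.50 ± 0.46 in TTF-derived ieSCs and -4.78 ± 0.46 in MEF-derived ieSCs (adjusted p = 0.00163 and 2.16e-05), and the ieSC kinds differed by 2.27 ± 0.38 (TTF-derived minus MEF-derived, adjusted p = 0.00136).

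Col5a1, which pairs with Col5a2 in type V, had the opposite order of the ieSC kinds. It read 14.67, 14.67, 13.57 and 13.83 in TTF-derived ieSCs, 15.42, 15.52, 15.15 and 15.41 in MEF-derived ieSCs, and 16.65 and 16.73 in MEFs. The 3 groups did not overlap, with TTF-derived ieSCs lowest: the difference from MEFs was -2.51 ± 0.34 in TTF-derived ieSCs and -1.32 ± 0.34 in MEF-derived ieSCs (adjusted p = 0.000234 and 0.00911). The ieSC kinds differed by -1.19 ± 0.28 (adjusted p = 0.00829), a call lost without name 1 of the MEF-derived ieSCs. Col5a3, the remaining type V chain, was lower in ieSCs by a log2 difference of -1.20 ± 0.26 (adjusted p = 0.00391), and its ieSC kinds did not differ past the threshold (-0.24 ± 0.23).

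Type II collagen is the fibril of cartilage, and its only gene, Col2a1, was bright in MEFs. It read 4.16, 4.66, 3.79 and 4.57 in TTF-derived ieSCs, 5.55, 5.03, 5.07 and 5.05 in MEF-derived ieSCs, and 13.30 and 13.16 in MEFs. All 4 arrays of TTF-derived ieSCs lay below the filter level of their array and all 4 of MEF-derived ieSCs just above it, so the log2 difference of -8.49 ± 0.42 (adjusted p = 2.52e-07) depends on the floor of the array. With values below the filter level raised to it, the difference was -8.14. Of 7 chondrocyte markers, 5 were tested and 4 were lower in ieSCs, beside 23.6% of all genes, Comp by -6.13 ± 0.33 and Acan by -2.67 ± 0.29. The remaining tested marker, Chad, did not pass (0.30 ± 0.13), but was higher in MEF-derived ieSCs alone (0.50 ± 0.14, past the threshold). That list averaged 4.66 to 5.08 on arrays of TTF-derived ieSCs, 4.71 to 4.85 on those of MEF-derived ieSCs and 6.88 to 6.99 on those of MEFs, with Matn1, Matn3, Hapln1 and Cnmd at the dim end in ieSCs and Matn1 and Cnmd in MEFs. The part of cartilage-like cells in the Col2a1 result was not tested. Sox9, which activates Col2a1 in chondrocytes and was among the transgenes, was lower in ieSCs by -3.46 ± 0.17 (adjusted p = 2.66e-07), reading 7.27 to 7.63 in TTF-derived ieSCs, 7.72 to 8.18 in MEF-derived ieSCs, and 11.16 and 11.19 in MEFs. Transcripts of the transgene and of the cells' own Sox9 gene were not told apart.

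Of the type XI chains, which nucleate thin fibrils in cartilage and elsewhere, Col11a1 separated the ieSC kinds and Col11a2 did not. Col11a1 read 11.79, 11.87, 11.41 and 11.34 in TTF-derived ieSCs, 14.47, 14.48, 13.55 and 13.56 in MEF-derived ieSCs, and 13.26 and 13.35 in MEFs. TTF-derived ieSCs were thus below both other groups, by -1.70 ± 0.31 from MEFs (adjusted p = 0.00161) and by -2.41 ± 0.25 from MEF-derived ieSCs (adjusted p = 9.52e-05). MEF-derived ieSCs lay above both MEF arrays by 0.71 ± 0.31 without passing the test (adjusted p = 0.0858). Col11a2 was lower in ieSCs by -0.81 ± 0.26 (adjusted p = 0.0256), a call that did not survive leaving out either MEF array. Its arrays overlapped between the ieSC kinds, which did not differ past the threshold (-0.31 ± 0.23, adjusted p = 0.346).

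**Figure D3:**
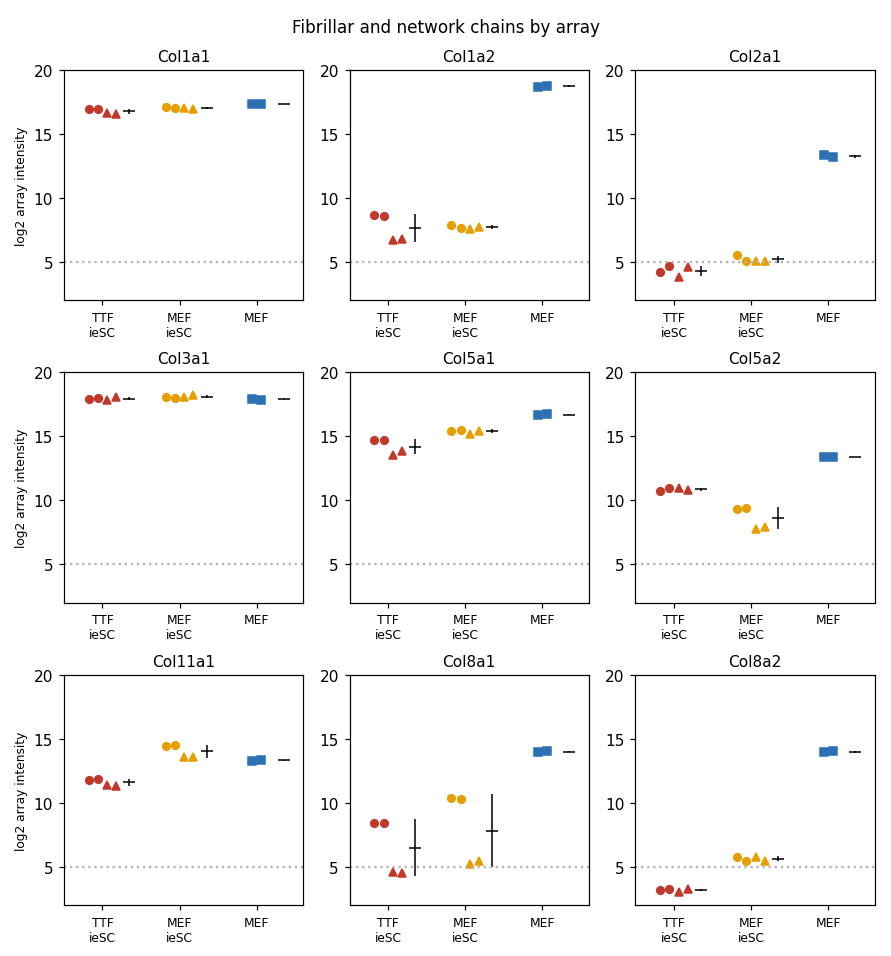
Log2 array intensity (y axis) of 7 fibrillar and 2 network chains in TTF-derived ieSCs, MEF-derived ieSCs and MEFs; circles are name 1, triangles name 2 and squares the MEF arrays, crosses with bars give the mean ± SD, and the dotted line at 5 marks the dim end. Col1a1 and Col3a1 stay above 16 in every group while Col1a2 and Col2a1 fall by more than 8 log2 units from MEFs, and Col8a1 splits by name in both kinds of ieSC.

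Type IV collagen has 6 chains, encoded by gene pairs that lie head to head, and the pairs moved differently. Col4a1 and Col4a2 make the network found in nearly all basement membranes. Col4a3, Col4a4 and Col4a5 make the network of the mature kidney glomerulus, and Col4a5 with Col4a6 a network under smooth muscle and some epithelia. The annotated Col4a1 and Col4a2 genes share 85 bases at their starts on chromosome 8, Col4a3 and Col4a4 share 114 bases on chromosome 1, and Col4a5 and Col4a6 lie 1274 bases apart on the X chromosome. The windows of 5 type IV genes, all but Col4a3, for which no window was available, are printed with capitals as for Col1a2. They lie at the ends where the paired genes face each other. They are Col4a1 (chr8:11312777-11313076, minus strand), Col4a2 (chr8:11312555-11312854, plus strand), Col4a4 (chr1:82586800-82587099, minus strand), Col4a5 (chrX:141475169-141475468, plus strand) and Col4a6 (chrX:141474027-141474326, minus strand), from RefSeq, GRCm38.p6.
Col4a1: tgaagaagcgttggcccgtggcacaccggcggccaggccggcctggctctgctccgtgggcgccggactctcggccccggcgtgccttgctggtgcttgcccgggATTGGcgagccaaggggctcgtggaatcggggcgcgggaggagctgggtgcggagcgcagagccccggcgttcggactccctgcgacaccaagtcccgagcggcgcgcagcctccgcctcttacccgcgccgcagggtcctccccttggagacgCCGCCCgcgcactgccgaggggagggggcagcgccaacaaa
Col4a2: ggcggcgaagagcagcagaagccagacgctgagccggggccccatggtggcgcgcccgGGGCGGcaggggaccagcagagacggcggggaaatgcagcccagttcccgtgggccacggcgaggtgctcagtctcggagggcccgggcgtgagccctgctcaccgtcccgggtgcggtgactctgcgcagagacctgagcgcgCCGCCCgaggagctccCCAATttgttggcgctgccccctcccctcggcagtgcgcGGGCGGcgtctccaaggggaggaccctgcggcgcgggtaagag
Col4a4: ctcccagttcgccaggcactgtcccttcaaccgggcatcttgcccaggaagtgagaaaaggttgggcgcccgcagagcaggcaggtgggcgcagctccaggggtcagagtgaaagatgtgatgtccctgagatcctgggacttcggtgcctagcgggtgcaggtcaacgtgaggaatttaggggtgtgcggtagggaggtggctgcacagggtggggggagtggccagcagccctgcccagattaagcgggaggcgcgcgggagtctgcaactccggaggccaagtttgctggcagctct
Col4a5: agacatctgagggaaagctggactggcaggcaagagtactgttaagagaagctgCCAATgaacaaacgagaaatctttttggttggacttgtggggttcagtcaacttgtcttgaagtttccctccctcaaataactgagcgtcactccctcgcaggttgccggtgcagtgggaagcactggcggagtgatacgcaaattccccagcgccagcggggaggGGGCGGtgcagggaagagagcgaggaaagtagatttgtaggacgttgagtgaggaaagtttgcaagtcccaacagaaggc
Col4a6: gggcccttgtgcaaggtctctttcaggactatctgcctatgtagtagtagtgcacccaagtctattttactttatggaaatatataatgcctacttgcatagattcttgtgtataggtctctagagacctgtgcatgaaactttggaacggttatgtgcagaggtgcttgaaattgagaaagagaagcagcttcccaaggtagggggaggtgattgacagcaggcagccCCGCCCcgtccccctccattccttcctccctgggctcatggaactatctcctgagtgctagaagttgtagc
The Col4a1 and Col4a2 windows overlap by 78 bases, read on opposite strands with the same letters. The CCAAT box occurs in the windows of Col4a1, Col4a2 and Col4a5 and the GC box in those of Col4a1, Col4a2, Col4a5 and Col4a6, while the Col4a4 window holds no match to any of the 4 motifs. The TATA element and the WT1 core are in none of the 5 windows.

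Col4a6 had the largest rise of any collagen gene in ieSCs among those that passed the test. It read 14.66, 14.67, 14.81 and 14.70 in TTF-derived ieSCs, 14.32, 14.29, 14.73 and 14.69 in MEF-derived ieSCs, and 10.31 and 10.29 in MEFs. The ieSC arrays lay within 1 log2 unit of each other and all above the MEF arrays, a log2 difference of 4.31 ± 0.14, 19.8-fold (adjusted p = 2.44e-08), with a range over its features of 2.53 to 4.31. Its partner Col4a5 read 14.31, 14.22, 14.11 and 14.15 in TTF-derived ieSCs, 14.15, 14.14, 14.25 and 14.18 in MEF-derived ieSCs, and 12.07 and 11.97 in MEFs. That is a rise of 2.17 ± 0.11, 4.50-fold (adjusted p = 2.84e-07), and the ieSC kinds overlapped, at a difference of 0.02 ± 0.10 (adjusted p = 0.911).

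The Col4a3 and Col4a4 pair, dim in MEFs, was also higher in ieSCs. Col4a3 read 7.93, 7.82, 7.82 and 8.01 in TTF-derived ieSCs, 8.21, 8.13, 9.61 and 9.60 in MEF-derived ieSCs, and 4.67 and 5.02 in MEFs. Name 2 of the MEF-derived ieSCs was highest, and 1 of the 2 MEF arrays lay below the filter level. The log2 difference was 3.54 ± 0.41 (adjusted p = 7.96e-05), and 3.37 with the dim value raised to that level. Col4a4 read 9.98, 9.91, 9.55 and 9.65 in TTF-derived ieSCs, 9.45, 9.52, 10.54 and 10.63 in MEF-derived ieSCs, and 6.19 and 6.23 in MEFs, a difference of 3.69 ± 0.32 (adjusted p = 1.01e-05; 2.00 to 3.69 over its features). As for Col4a3, name 2 of the MEF-derived ieSCs was above name 1, by 1.10 for Col4a4 and 1.43 for Col4a3. Markers of other cells rose as well: 5 of 5 mesothelial markers, 3 of 4 tested epithelial markers (of 6) and 1 of 3 tested endothelial markers (of 5), with 1 endothelial marker lower. Over all genes, 25.9% were higher and 23.6% lower, so the endothelial counts are near those shares. By kind, Krt18 passed only in MEF-derived ieSCs (5.39, beside 0.26 in TTF-derived ieSCs). Krt8 of the same list went the other way, passing only in TTF-derived ieSCs (2.88, beside -0.28 in MEF-derived ieSCs). Tek and Lrrn4 passed only in TTF-derived ieSCs. The mesothelial list averaged 14.34 to 14.64 on arrays of TTF-derived ieSCs, 13.66 to 14.52 on those of MEF-derived ieSCs and 10.05 to 10.06 on those of MEFs, while the epithelial Cdh1 and Epcam lay at the dim end in all groups. Their part in the type IV result was not tested.

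The common pair, Col4a1 and Col4a2, did not rise and instead set TTF-derived ieSCs apart. Col4a1 read 13.44, 13.54, 13.32 and 13.40 in TTF-derived ieSCs, 15.53, 15.51, 14.81 and 14.93 in MEF-derived ieSCs, and 14.96 and 15.05 in MEFs. Col4a2 read 14.12, 14.13, 14.11 and 14.04 in TTF-derived ieSCs, 15.32, 15.25, 14.84 and 14.85 in MEF-derived ieSCs, and 15.01 and 14.93 in MEFs. For both genes the TTF-derived arrays were below all others, and the MEF-derived arrays lay on either side of the MEF arrays, name 1 above and name 2 below. Col4a1 differed by -1.58 ± 0.22 between TTF-derived ieSCs and MEFs (adjusted p = 0.000318), by 0.19 ± 0.22 between MEF-derived ieSCs and MEFs (adjusted p = 0.509) and by -1.77 ± 0.18 between the ieSC kinds (adjusted p = 8.03e-05). The matching differences for Col4a2 were -0.87 ± 0.16, 0.10 ± 0.16 and -0.97 ± 0.13 (adjusted p = 0.00187, 0.66 and 0.000481). Over all 8 ieSC arrays, Col4a1 was lower than in MEFs by -0.69 ± 0.20 (adjusted p = 0.0184), with ieSC arrays on both sides of the MEF arrays, and that call was lost without MEF array b. The array holds 10 features of Col4a1, which gave differences of -0.69 to -0.46 for that comparison, and not all of them passed.

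**Figure D4:**
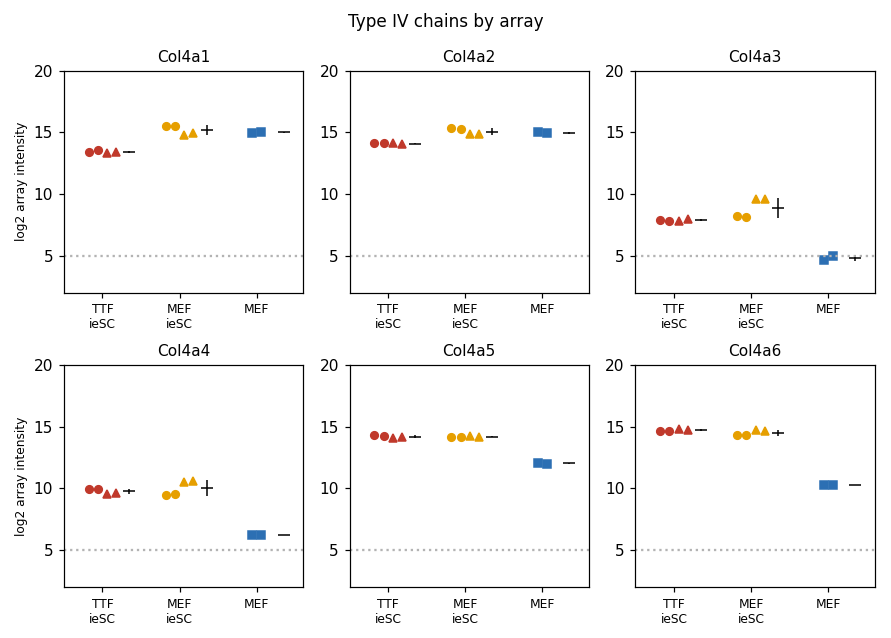
Log2 array intensity (y axis) of the 6 type IV chains in TTF-derived ieSCs, MEF-derived ieSCs and MEFs; circles are name 1, triangles name 2 and squares the MEF arrays, crosses with bars give the mean ± SD, and the dotted line at 5 marks the dim end. Col4a3, Col4a4, Col4a5 and Col4a6 are above MEFs on all 8 ieSC arrays, whereas Col4a1 and Col4a2 are below MEFs on the 4 arrays of TTF-derived ieSCs and on both sides of them in MEF-derived ieSCs.

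Type VI collagen forms beaded filaments around cells, with Col6a1 and Col6a2 as the chains present in every filament. Col6a1 read 17.32, 17.37, 17.38 and 17.77 in TTF-derived ieSCs, 16.38, 16.40, 17.61 and 17.86 in MEF-derived ieSCs, and 16.69 and 16.69 in MEFs. Col6a2 read 14.99, 15.06, 15.36 and 15.25 in TTF-derived ieSCs, 13.80, 13.76, 15.48 and 15.62 in MEF-derived ieSCs, and 14.57 and 14.60 in MEFs. In both genes all TTF-derived arrays were above the MEF arrays, while among MEF-derived ieSCs name 1 was below and name 2 above them. Neither passed the test in ieSCs against MEFs (0.57 ± 0.41 and 0.33 ± 0.48, adjusted p = 0.278 and 0.607). Without name 2 of the MEF-derived ieSCs, Col6a2 was lower in them than in MEFs by -0.80, and without name 1 it was higher by 0.97, each past the threshold, so the sign of that comparison rests on the name. Col6a4 did not pass either and is a dim gene here, above the filter level on 2 arrays, both of TTF-derived ieSCs.

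Col6a5, a longer alternative chain of type VI, had the largest difference between the ieSC kinds over all arrays. It read 11.71, 11.80, 7.30 and 7.39 in TTF-derived ieSCs, 4.57, 4.12, 5.07 and 4.69 in MEF-derived ieSCs, and 4.99 and 4.96 in MEFs. All TTF-derived arrays stood above every other array, name 1 above name 2 by 4.41. TTF-derived minus MEF-derived ieSCs gave 4.94 ± 1.06 (adjusted p = 0.00557), and 1.57 to 4.94 over its features. The size rests on the name: it was 2.73 without name 1 of the TTF-derived ieSCs, under the -3.97 of Col22a1 and the -3.80 of Col12a1 in size, and 7.14 without their name 2. The feature behind these values carries an older symbol on the platform and was assigned through its RefSeq accession, and the other feature of the gene read 5.14 ± 1.40 in TTF-derived ieSCs, 3.57 ± 0.32 in MEF-derived ieSCs and 2.51 ± 0.14 in MEFs (mean ± SD over 4, 4 and 2 arrays), with no call between the ieSC kinds.

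The network collagens form hexagonal sheets, type VIII beneath endothelia and around vessels and type X in growth-plate cartilage, and all 3 genes were lower in both kinds of ieSC. Col8a2 read 3.21, 3.22, 3.05 and 3.22 in TTF-derived ieSCs, 5.78, 5.48, 5.78 and 5.42 in MEF-derived ieSCs, and 13.93 and 14.01 in MEFs. The 3 groups were far apart and tight within themselves, with a log2 difference of ieSCs from MEFs of -9.58 ± 0.20 (adjusted p = 3.4e-09; -9.58 to -3.35 over its features, and -8.66 with dim values raised). The gap of -2.44 ± 0.18 between the ieSC kinds (adjusted p = 1.16e-05) lies mostly within the dim end, where it was -0.61 with dim values raised, and the other Col8a2 feature gave -0.07.

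Col8a1, the partner chain, split by name. It read 8.44, 8.42, 4.58 and 4.52 in TTF-derived ieSCs, 10.33, 10.26, 5.21 and 5.44 in MEF-derived ieSCs, and 13.95 and 14.01 in MEFs. Every ieSC array was below the MEF arrays, and name 2 was below name 1 by 3.88 in TTF-derived and by 4.97 in MEF-derived ieSCs. The log2 difference from MEFs was -6.83 ± 1.65 (adjusted p = 0.00694), a wide error beside the split. In MEF-derived ieSCs the call was lost without name 2, and all calls of this gene against MEFs were lost with the arrays of a name averaged.

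Col10a1 read 4.32, 4.60, 4.18 and 3.81 in TTF-derived ieSCs, 5.23, 5.24, 4.77 and 4.84 in MEF-derived ieSCs, and 11 on array a and 10.88 on array b of MEFs. It was thus bright in MEFs alone, with a log2 difference of -6.32 ± 0.26 (adjusted p = 8.03e-08), or -5.88 with dim values raised. Its difference between the ieSC kinds, -0.79 ± 0.23 (adjusted p = 0.0236), was lost with dim values raised.

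Col24a1, a fibrillar-like chain described in developing bone, and Col26a1, first described in developing testis and ovary, showed the same shape. Col24a1 read 4.53, 4.21, 4.18 and 3.86 in TTF-derived ieSCs, 4.08, 4.31, 4.71 and 4.24 in MEF-derived ieSCs, and 9.94 and 10.19 in MEFs. Col26a1 read 5.11, 4.87, 4.58 and 4.42 in TTF-derived ieSCs, 4.37, 5.00, 4.54 and 4.92 in MEF-derived ieSCs, and 11.65 and 11.47 in MEFs. The ieSC kinds overlapped in both genes, below the filter level on all ieSC arrays but 1, an array of TTF-derived ieSCs in Col26a1. Log2 differences from MEFs were -5.80 ± 0.31 for Col24a1 and -6.83 ± 0.34 for Col26a1 (adjusted p = 4.12e-07 and 2.75e-07), or -5.06 and -6.54 with dim values raised. Osteoblast markers were lower in 1 of 5 tested cases, Ibsp, which is near the 23.6% of all genes that were lower. Their median log2 difference was -0.16.

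Among the FACITs, Col12a1 and Col14a1, which coat type I fibrils, took different courses. Col12a1 read 10.39, 10.23, 8.76 and 8.74 in TTF-derived ieSCs, 12.35, 12.36, 12.74 and 12.79 in MEF-derived ieSCs, and 15.19 and 15.05 in MEFs. The groups did not overlap and stood in that order, lowest to highest: the difference was -5.59 ± 0.47 between TTF-derived ieSCs and MEFs (adjusted p = 1.11e-05), -2.56 ± 0.47 between MEF-derived ieSCs and MEFs (adjusted p = 0.00153) and -3.03 ± 0.39 between the ieSC kinds (adjusted p = 0.000311). Col14a1 read 12.29, 12.45, 12.99 and 13.20 in TTF-derived ieSCs, 9.68, 9.78, 10.80 and 10.85 in MEF-derived ieSCs, and 11.41 and 11.50 in MEFs. On this feature the TTF-derived arrays were above and the MEF-derived arrays below the MEF arrays, and the ieSC kinds differed by 2.46 ± 0.33 (adjusted p = 0.000407). The other kept feature of Col14a1 read 8.23, 8.16, 9.18 and 9.18 in MEF-derived ieSCs and 8.82 and 8.81 in MEFs, so there the MEF-derived arrays lay on both sides of MEFs (-0.13, adjusted p = 0.78 in a fit of all kept features). Its difference between the ieSC kinds was 2.13 (adjusted p = 0.00021), and it was higher than in MEFs in TTF-derived ieSCs by 2.01 and in both kinds together by 0.94 (adjusted p = 0.0227), where the first feature gave 0.05 and no call.

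Col22a1, a FACIT of tissue junctions such as that of muscle and tendon, ran the other way between the ieSC kinds. It read 5.53, 4.95, 4.26 and 3.86 in TTF-derived ieSCs, 7.54, 7.58, 8.50 and 8.50 in MEF-derived ieSCs, and 6.12 and 6.07 in MEFs. The groups did not overlap, and the ieSC kinds differed by -3.38 ± 0.43 (adjusted p = 0.000288), or by -2.90 with dim values raised. Col20a1, a FACIT with little known function, was higher in TTF-derived than in MEF-derived ieSCs by 1.26 ± 0.20 and than in MEFs by 1.79 ± 0.24 (adjusted p = 0.00103 and 0.000254). Col9a2, a cartilage FACIT, was lower in ieSCs than in MEFs by -1.72 ± 0.17 (adjusted p = 2.36e-05), whereas Col9a1 gave 0.27 ± 0.32 and features that ranged from -1.57, which passed, to 0.27. Col16a1 and Col19a1 did not pass against MEFs (-0.20 ± 0.15 and -0.46 ± 0.57), although 1 of the other kept features of Col16a1 was higher in ieSCs by 0.73.

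Among the remaining types, Col18a1, a basement membrane multiplexin whose end fragment is endostatin, read 10.78, 10.73, 10.50 and 10.22 in TTF-derived ieSCs, 7.55, 7.25, 8.58 and 8.64 in MEF-derived ieSCs, and 11.63 and 11.50 in MEFs. MEF-derived ieSCs were lowest with no overlap: -3.56 ± 0.41 from MEFs (adjusted p = 7.62e-05) and 2.55 ± 0.34 for TTF-derived minus MEF-derived ieSCs (adjusted p = 0.000371). TTF-derived ieSCs differed from MEFs by -1.01 ± 0.41 without passing (adjusted p = 0.0748). Its relative Col15a1 was dim in all groups, at -0.08 ± 0.37. Col7a1, the anchoring fibril of skin, and Col27a1, a cartilage fibrillar-like chain, were lower in ieSCs by -1.45 ± 0.19 and -1.26 ± 0.21 (adjusted p = 0.00018 and 0.000934). Col28a1, a collagen of peripheral nerve, was higher in ieSCs by 1.11 ± 0.25 (adjusted p = 0.00491). By kind, it passed in MEF-derived ieSCs (1.56 ± 0.28, adjusted p = 0.00114) and not in TTF-derived ieSCs (0.67 ± 0.28, adjusted p = 0.0777).

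The transmembrane types, which stay in the cell membrane and are shed from it, were dim or divided by name. Col23a1 read 9.14, 9.10, 5.62 and 6.12 in TTF-derived ieSCs, 7.48, 7.49, 9.44 and 9.38 in MEF-derived ieSCs, and 8.62 and 8.61 in MEFs, shown after these values were seen. Name 2 was below name 1 by 3.25 in TTF-derived ieSCs and above it by 1.93 in MEF-derived ieSCs, and no comparison passed the test. Col17a1, a chain of skin hemidesmosomes, was lower in TTF-derived than in MEF-derived ieSCs by -1.56 ± 0.38 (adjusted p = 0.0112), with all TTF-derived arrays below the filter level. With dim values raised the difference was -0.83 (adjusted p = 0.0132), and the call was lost without name 2 of the MEF-derived ieSCs. Col25a1, dim in all groups, gave -0.30 ± 0.45 in ieSCs against MEFs on its brightest feature, while its other kept feature was lower by -1.22 (adjusted p = 5.8e-05 in the fit of all kept features) and the mean of both gave -0.76 (adjusted p = 0.02).

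The kinds of ieSC were compared directly over the whole class as well. Of the 40 collagen genes, 11 were lower and 5 higher in TTF-derived than in MEF-derived ieSCs, against 19.3% and 16.8% of all genes, so that 40% of the collagen genes passed beside 36.0% of all genes. The groups' arrays did not overlap for 19 of the 40 genes, the 16 among them, and non-overlap was not counted over all genes. The 5 higher genes were Col5a2, Col6a5, Col14a1, Col18a1 and Col20a1. The 11 lower genes were Col4a1, Col4a2, Col5a1, Col8a2, Col10a1, Col11a1, Col12a1, Col16a1, Col17a1, Col22a1 and Col28a1. With the arrays of each name averaged, 1 was higher and 5 were lower, among them Col2a1, which gained a call. The calls of Col4a2, Col5a1, Col5a2, Col6a5, Col10a1, Col12a1, Col14a1, Col16a1, Col17a1, Col20a1 and Col28a1 were lost.

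Names 1 and 2 of a kind of ieSC differed by more than 1 log2 unit in 8 collagen genes of TTF-derived and in 9 of MEF-derived ieSCs. Such differences were not counted over all genes, so whether these counts are particular to collagens is not known. Arrays of a shared name differed by a median of 0.101 over the 40 genes. Only Col8a1 and Col23a1 were in both sets, and of these only Col8a1 differed in the same direction. In TTF-derived ieSCs name 2 was below name 1 in all 8: Col1a2, Col6a4, Col6a5, Col8a1, Col12a1, Col17a1, Col22a1 and Col23a1. In MEF-derived ieSCs name 2 was above name 1 in Col4a3, Col4a4, Col6a1, Col6a2, Col14a1, Col18a1 and Col23a1 and below it in Col5a2 and Col8a1. The labels do not say what sets the names apart.

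**Figure D5:**
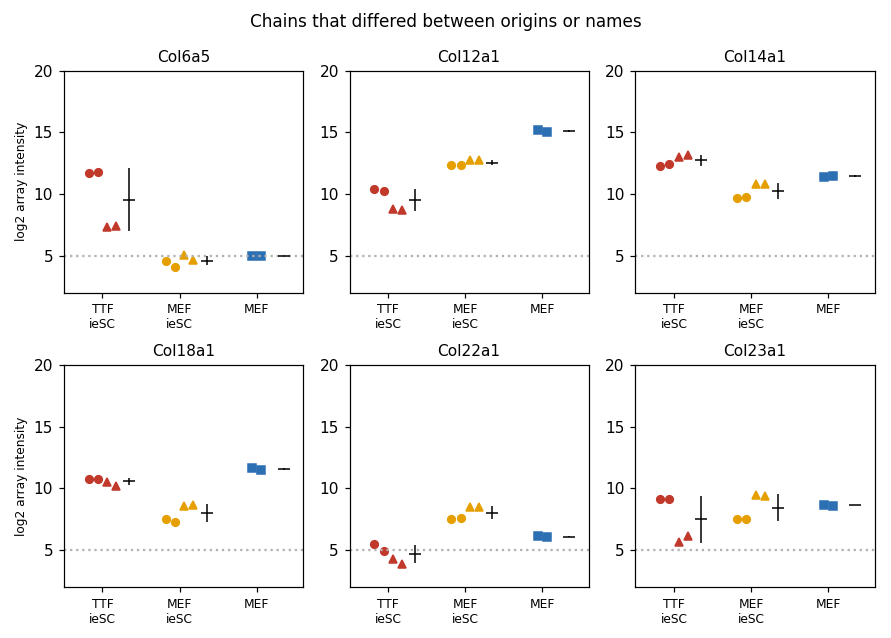
Log2 array intensity (y axis) of 6 collagen genes that differ between ieSC kinds or between names, in TTF-derived ieSCs, MEF-derived ieSCs and MEFs; circles are name 1, triangles name 2 and squares the MEF arrays, crosses with bars give the mean ± SD, and the dotted line at 5 marks the dim end. Col14a1 lies above MEFs in TTF-derived and below them in MEF-derived ieSCs, Col22a1 the reverse, and Col6a5 and Col23a1 split by name.

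Collagen chains reach the matrix through a shared line of enzymes, chaperones and carriers, and most lists of these held more lower than higher genes in ieSCs. Of 18 tested genes for procollagen modification and folding, 9 were lower and 3 higher, against the 23.6% and 25.9% of all genes. P4ha3, a prolyl 4-hydroxylase subunit, fell by 3.33 ± 0.17 (its features gave -6.15 to -3.33) and P3h3, a prolyl 3-hydroxylase, by 3.58 ± 0.24, while Fkbp14, a prolyl isomerase, fell by 1.56 ± 0.17. Serpinh1, the collagen chaperone HSP47, read 16.93 to 17.29 in TTF-derived ieSCs, 16.82 to 17.10 in MEF-derived ieSCs, and 17.13 on both arrays of MEFs, with overlapping arrays and a difference of -0.08 ± 0.15 (adjusted p = 0.703). In the list of procollagen export, 5 of 7 were lower and 0 higher, led by Kdelr2, an endoplasmic reticulum retrieval receptor (-1.36 ± 0.14), the cargo receptor Mia3 (-0.84 ± 0.11) and the COPII coat subunit Sec23a (-0.75 ± 0.21).

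Outside the cell, 7 of 12 genes for propeptide processing and crosslinking were lower and 2 higher. Over all genes, 23.6% were lower and 25.9% higher, the shares to read beside each count in this paragraph. Lox, the lysyl oxidase that crosslinks fibrils, read 11.91, 11.73, 9.01 and 9.13 in TTF-derived ieSCs, 8.31, 8.31, 7.62 and 7.25 in MEF-derived ieSCs, and 15.27 and 15.33 in MEFs, a difference of -6.14 ± 0.77 (adjusted p = 0.000133) with no overlap of any groups. The related Loxl4 and Loxl1 fell by 2.25 ± 0.21 and 3.96 ± 0.50. Among 12 small leucine-rich proteoglycans and other regulators of fibrils, 7 were lower and 2 higher, with Aspn at -8.95 ± 0.21, Thbs2 at -9.71 ± 0.34 and Bgn at -5.97 ± 0.29. For collagen breakdown, 4 of 6 were lower and 1 higher, including the proteases Ctsk (-6.45 ± 0.18), Mmp14 (-4.84 ± 0.29) and Mmp2 (-8.66 ± 0.59).

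Receptors and partners included called genes of both directions. Of 9 tested collagen receptors, 5 were lower and 2 higher, beside 23.6% and 25.9% of all genes, so the higher count is near that share: Itga11, the integrin of fibroblasts that binds type I fibrils, fell by 9.15 ± 0.30 and the uptake receptor Mrc2 by 4.31 ± 0.19, while Adgrg1, a receptor of type III collagen, rose by 5.19 ± 0.26. Of 12 basement membrane partners of type IV, 5 were lower and 4 higher. Lama5, a laminin chain, rose by 2.16 ± 0.18, whereas Nid1, which links laminin to type IV collagen, fell by 8.52 ± 0.29 (-8.52 to -4.07 over its features) and the laminin chain Lamb1 was at -5.10 ± 0.26. Of 8 transcription factors that bind collagen genes, 5 were lower and 3 higher. Besides Sox9, Creb3l1, an activator of type I collagen in osteoblasts, fell by 5.55 ± 0.18 and Twist1, a mesenchymal factor, by 8.47 ± 0.43.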

How the data were processed

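Intensities of 62976 features were deposited on a log2 scale for 10 arrays, 1 sample each, and the authors' processing notes name limma without a version. Above the 40th percentile the sorted columns differ by at most 0.0379, as columns look after quantile normalization, so a change in total mRNA per cell cannot be seen. The log base was taken as 2 from the range of the deposited values (0.288 to 19.02). Background correction and detection flags are not given in the sources used here. Levels near 5.0 (40th percentile 4.988 to 5.023) form the dim end, where a difference is not a ratio of transcripts.

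Gene symbols came from the platform annotation, updated through the RefSeq table (GRCm38.p6, used for names, neighbouring genes and promoter windows). The update gave 2 of the 74 collagen features their name. A feature was kept if above the 40th percentile on at least 2 arrays, and the brightest kept feature on average stood for its gene. Of the collagen genes, 16 have more than 1 feature. limma 3.58.1 in R 4.3.3 (statmod 1.5.0) fitted 3 group means to all 10 arrays with the shared name of a pair of arrays as a random block (consensus correlation 0.606, 7 residual degrees of freedom, median SE 0.174 for ieSC against MEF). Both kinds of ieSC against MEFs is the mean of the 2 ieSC groups minus MEFs. Moderated p-values were two-sided and adjusted over 16650 genes, with a threshold of 0.05. The array number limits the precision. The fit was tested on simulated data in which every gene had the same spread. That run does not bear on genes whose names lie far apart.

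Arrays were grouped by source name. Array values are shown for Col1a1, Col1a2, Col2a1, Col3a1, Col5a1, Col5a2, Col4a1 to Col4a6, Col6a1, Col6a2, Col8a1 and Col18a1, for the 8 largest differences from MEFs and the 6 largest between ieSC kinds among called genes with no overlap of arrays, and for at most 3 genes of each pathway list by smallest p, with Sox9, Serpinh1 and Lox always. Col11a1 and Col23a1 were added after their values were seen. Collagen classes, pathway lists, marker lists and rules were chosen with earlier results of these data known. In all, 26 alternative settings were run: other blocks, filters, feature rules, scalings and priors, a size threshold, and leaving out arrays or names. Names 1 and 2 are numbers shared by the ieSC kinds, and nothing in the labels says that they pair samples.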

Additional observations from a re-analysis of the deposited data

Results flagged for a closer look

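Col14a1 and Col22a1 passed the test against the same MEF arrays in opposite directions in the kinds of ieSC. Col14a1 was higher than in MEFs in TTF-derived ieSCs (1.28 ± 0.40, adjusted p = 0.0276) and lower in MEF-derived ieSCs (-1.18 ± 0.40, adjusted p = 0.0347), a difference of 2.46 between the kinds (limma, adjusted p = 0.000407). Col22a1 was lower in TTF-derived ieSCs (-1.44 ± 0.52, adjusted p = 0.0491) and higher in MEF-derived ieSCs (1.94 ± 0.52, adjusted p = 0.012), a difference of -3.38 (adjusted p = 0.000288). The opposite directions of Col14a1 rest on 1 of its 2 kept features: the other gave -0.13 in MEF-derived ieSCs against MEFs (adjusted p = 0.78 in a fit of all kept features) and 2.13 between the kinds. The weaker sides were not stable: the Col22a1 call in TTF-derived ieSCs was lost in 14 of the alternatives run and the Col14a1 call in MEF-derived ieSCs in 8. Leaving out either MEF array ended both Col14a1 calls against MEFs. The difference between the kinds kept its call in every alternative for Col22a1, and for Col14a1 in every alternative but the one that averaged the arrays of a name.

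In 3 of 80 groups of 4 ieSC arrays a single array stood apart by Dixon's criterion, which sets its gap against the range of the group. Chance alone meets it in about 1 of 20 groups of independent values. The groups here are made of pairs of arrays with a shared name, so that rate may not apply. Col2a1 read 5.55 on its highest array of MEF-derived ieSCs, where the next read 5.07. Col6a1 read 17.77 on its highest array of TTF-derived ieSCs, above a next value of 17.38. Col8a2 read 3.05 on its lowest array of TTF-derived ieSCs, where the next read 3.21, and these Col8a2 readings lie at the dim end.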

How the results depend on the processing

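Calls that passed in every one of the alternatives run numbered 16 of 27 for TTF-derived ieSCs against MEFs, 15 of 22 for MEF-derived ieSCs against MEFs, 5 of 16 between the ieSC kinds and 18 of 24 for all ieSCs against MEFs, and 0 of the called differences reversed. Averaging the arrays of each name, which leaves 5 values and 2 residual degrees of freedom, gave 11 collagen genes lower in TTF-derived ieSCs and 10 lower in MEF-derived ieSCs than in MEFs, and 1 higher and 5 lower between the ieSC kinds. A size threshold of 1 log2 unit gave 7 lower between the ieSC kinds. Leaving out arrays or names gave 5 to 9 higher between the ieSC kinds, with 8 without TTF-derived name 2 and 9 without MEF-derived name 2, and 8 to 16 lower. Over the same omissions, Col1a2 between the ieSC kinds ran from -0.99 to 0.88, the last without name 2 of the TTF-derived ieSCs, and Col6a2 in MEF-derived ieSCs against MEFs from -0.80 to 0.97, the first without their name 2. Cyclic loess scaling moved the median of all genes in ieSCs against MEFs to -0.01, beside 0.09 on the deposited scale, and gave 6 collagen genes higher and 18 lower.

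With the label number as a replicate block, 7 collagen genes were higher and 15 lower between the ieSC kinds, beside 5 and 11 without it. The deviations of same-numbered names correlated at 0.297 across 16650 genes, and with only 2 numbers and no label that ties them, the samples were treated as sharing a number only. Signal over the dim end limits Col2a1, Col8a2, Col10a1, Col24a1 and Col26a1 in ieSCs, and MEFs rest on 2 arrays of 1 name.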
